A study of Homo sapiens with 6 samples.

Results

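The genes described here are the alcohol dehydrogenases (ADH) and aldo-keto reductases of family 1 (AKR1), given as a list of 10 names and matched by gene name in the deposited table. Of the 10, 9 were analysed among the 29153 genes listed, namely ADH4, ADH5, ADH6, AKR1B10, AKR1C1, AKR1C2, AKR1C3, AKR1C4 and AKR1D1, while ADH1A was not analysed here. All 9 were among the 13452 genes with a mean level of at least 0.5 FPKM, a unit scaled to transcript length and library size, which were the genes tested.

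RNA was sequenced from HepG2, an established line derived from a human liver cancer, 72 h after infection with a lentivirus carrying a short hairpin RNA. The control group (sh-NC, 3 libraries) carried the control hairpin shNC and the knockdown group (sh-LINC01977, 3 libraries, named sh3 in the titles) carried 1 hairpin against the long noncoding RNA LINC01977. Both groups thus share the line, the virus, the puromycin selection given in the methods and the time. The labels do not say whether the 3 libraries of a group came from separate cultures, so p-values measure the spread between these libraries, which may be technical. Total counts lay between 49929024 and 60441515. LINC01977 itself had counts of 4, 0 and 16 in sh-NC and 0, 0 and 4 in sh-LINC01977 libraries. Its reduction could therefore not be checked at this depth, and the groups rest on the labels. The paper reports a check of the knockdown by quantitative PCR in HepG2, and does not say whether that covered the RNA sequenced here.

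Alcohol dehydrogenases are zinc enzymes that oxidize alcohols to aldehydes with NAD, and the liver is their main site, where they clear ethanol, retinol and formaldehyde adducts. Aldo-keto reductases mostly run the other way, using NADPH to reduce aldehydes and ketones to alcohols. In liver the AKR1C enzymes reduce steroid hormones, AKR1D1 reduces the steroid ring on the way to bile acids, and AKR1B10 reduces retinal and lipid aldehydes and is often abundant in liver cancer. Several AKR1 genes are known targets of the antioxidant regulator NRF2.

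The AKR1C genes are neighbouring copies on chromosome 10, and 2 of them could hardly be told apart by sequence upstream of their starts. The windows printed here are shown because these 3 neighbouring copies are the AKR1C genes with high levels, and AKR1C1 and AKR1C2 are almost the same there. They run from 250 bases before to 50 bases after the RefSeq start (GRCh38.p14), 5′ to 3′ on the strand of the gene. They lie at chr10:4963165-4963464 on the plus strand (AKR1C1), chr10:5003808-5004107 on the minus strand (AKR1C2) and chr10:5048531-5048830 on the plus strand (AKR1C3, the first of 2 listed starts). Capitals mark the CCAAT box, which reads ATTGG because it is on the opposite strand.
AKR1C1: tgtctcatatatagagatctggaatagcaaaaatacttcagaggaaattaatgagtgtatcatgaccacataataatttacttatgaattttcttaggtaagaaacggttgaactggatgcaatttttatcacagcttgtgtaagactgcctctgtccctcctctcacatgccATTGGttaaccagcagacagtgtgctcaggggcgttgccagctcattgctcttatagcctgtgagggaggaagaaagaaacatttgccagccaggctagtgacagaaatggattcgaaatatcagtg
AKR1C2: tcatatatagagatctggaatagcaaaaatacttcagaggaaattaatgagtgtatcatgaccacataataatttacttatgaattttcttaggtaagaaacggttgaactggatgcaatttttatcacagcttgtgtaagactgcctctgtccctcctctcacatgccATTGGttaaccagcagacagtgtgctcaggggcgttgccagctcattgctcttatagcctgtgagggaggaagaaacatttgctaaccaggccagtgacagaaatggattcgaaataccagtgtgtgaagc
AKR1C3: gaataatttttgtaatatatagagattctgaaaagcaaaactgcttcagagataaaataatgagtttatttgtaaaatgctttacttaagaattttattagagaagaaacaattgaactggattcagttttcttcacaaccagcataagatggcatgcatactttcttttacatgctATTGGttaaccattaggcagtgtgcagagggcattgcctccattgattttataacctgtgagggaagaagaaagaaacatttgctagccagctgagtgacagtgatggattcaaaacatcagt

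When aligned end to end, the AKR1C1 and AKR1C2 windows were identical at 288 of 292 aligned bases, or 98.6%. The AKR1C3 window matched AKR1C1 at 78.0% of aligned bases, and the AKR1C4 window at 70.5%. For comparison, the window of the more distant AKR1D1 matched AKR1C1 at 64.7% under the same alignment. RefSeq windows were matched for 9 of the 10 listed genes, all but AKR1B10. The core of the antioxidant response element, TGACNNNGC on either strand, was in 0 of these 9 genes' windows, against 13.3% of all 35116 windows, which draws nothing about NRF2 since the element can lie elsewhere. The CCAAT box, a motif chosen after the windows were read, was in the windows of 5 of the 9 genes (AKR1C1, AKR1C2, AKR1C3, ADH4 and ADH1A). It was in 34.6% of all windows. A gene can have several windows, so a count of genes and a share of windows are unlike measures. The windows of AKR1C1, AKR1C2 and AKR1C3 resemble each other and are not separate cases, so nothing is drawn from this.

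The copies are also close within the transcript, which bears on how their reads could be assigned. Of the 100-nt windows in the longest coding transcript of AKR1C2, 32.9% also occur in a transcript of another gene, almost all in AKR1C1. That share was 17.4% for AKR1C1, 4.98% for AKR1C3, 2.01% for AKR1B10 and 1.15% for ADH5. It was 0.46% for AKR1C4 and 0 for ADH4, ADH6 and AKR1D1. Separate values of AKR1C1 and AKR1C2 are therefore uncertain to the extent that the authors' counting split shared reads, and their sum is given beside them.

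Compared per transcript length, AKR1C1, AKR1B10, AKR1C2 and AKR1C3 were the abundant members, the 3 dehydrogenases lay below them, and AKR1D1 and AKR1C4 were lowest. In sh-NC cells, the order by mean FPKM was AKR1C1 at 409 ± 75, AKR1B10 at 340.5 ± 51, AKR1C2 at 261 ± 43, AKR1C3 at 108 ± 11 and ADH5 at 41.0 ± 4.0 (SD, n = 3 each). It went on with ADH4 at 10.8 ± 2.0, ADH6 at 9.19 ± 0.42, AKR1D1 at 3.78 ± 1.15 and AKR1C4 at 1.56 ± 0.48 FPKM (SD, n = 3 each). Libraries of AKR1C1 and AKR1B10, of AKR1B10 and AKR1C2, and of ADH4 and ADH6 overlapped across libraries, so those neighbours were not apart beyond that spread. Within each of the 3 control libraries, the first of each pair was nonetheless the higher, by little for ADH4 and ADH6 in the third (8.725 and 8.710 FPKM). By mean FPKM in sh-NC cells, AKR1C1 ranked 65th and AKR1B10 88th of the 13452 tested genes.

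**Figure D1:**
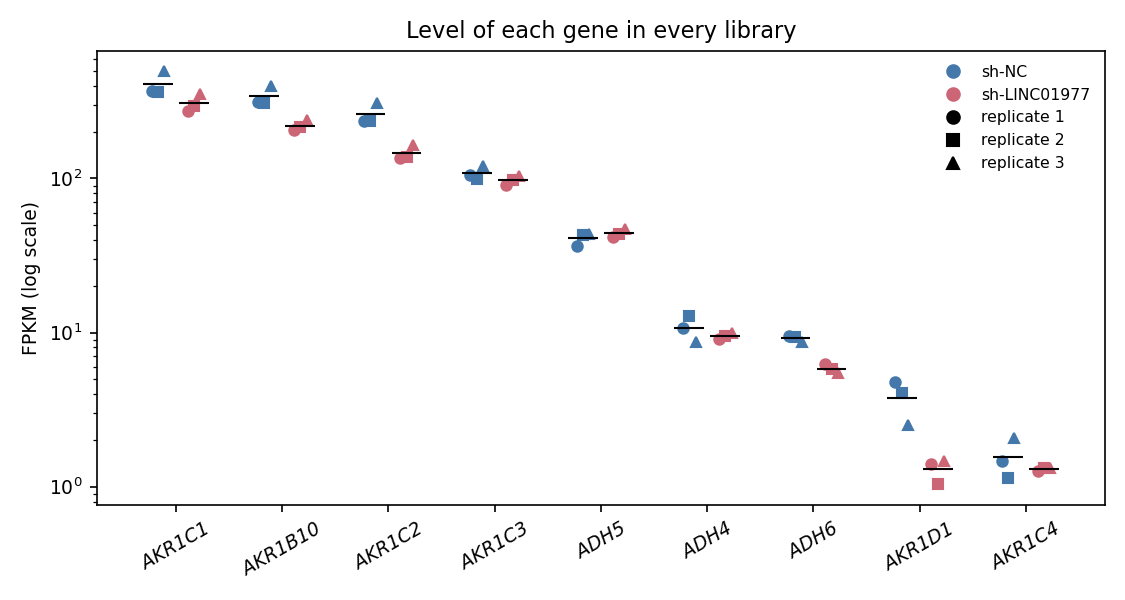
FPKM on a log axis for the 9 measured genes, in order of their sh-NC mean, with 1 point per library (shape gives the replicate number) and a bar at the group mean. In sh-LINC01977 cells the order was the same, except that AKR1D1 at 1.31 FPKM came down to the level of AKR1C4 at 1.30 FPKM.

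In sh-LINC01977 cells the order by mean FPKM was the same. AKR1C1 was at 307 ± 40, AKR1B10 at 219.9 ± 16.7, AKR1C2 at 147 ± 17, AKR1C3 at 97.9 ± 6.5 and ADH5 at 44.2 ± 2.6 FPKM (SD, n = 3 each). AKR1D1 at 1.31 ± 0.23 and AKR1C4 at 1.30 ± 0.03 FPKM were the only neighbours that overlapped there. The size of the gap in FPKM between AKR1C1 and AKR1C2 depends on the transcript length used, since the longest annotated coding transcripts are 6705 and 3756 nt long.

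After the LINC01977 hairpin, 4 of the 9 genes fell at an adjusted p under 0.05 and 0 rose in edgeR, where 0 were higher at an unadjusted p under 0.05 either; 0 also rose with DESeq2 and with limma. The 4 were AKR1D1, AKR1C2, ADH6 and AKR1B10, at 33.2%, 53.8%, 60.5% and 61.8% of their sh-NC level. Of the other members, AKR1C1, AKR1C3, AKR1C4, ADH4 and ADH5 did not pass. Called lower genes were thus 44.4% of the members, against 8.07% of all tested genes called lower and 7.05% called higher. The members were chosen with earlier results of these data known, and the AKR1C copies share sequence, so no test is drawn from these shares. At a fold change of at least 2 with an unadjusted p of at most 0.05, 1 member (11.1%), AKR1D1, was lower, against 1.05% of all tested genes. In CPM, the scaled counts described below, the 3 knockdown libraries lay below all 3 control libraries for 6 members (66.7%), against 18.3% of tested genes. This depends on the scale. In FPKM the groups of AKR1C3, among the 6, overlapped, with a knockdown library at 104.0 and a control library at 99.0. The median log2 fold change of the 9 members was -0.48, and that of all tested genes was -0.0010. In bulk RNA, fewer cells of a kind and less RNA per cell cannot be told apart.

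**Figure D2:**
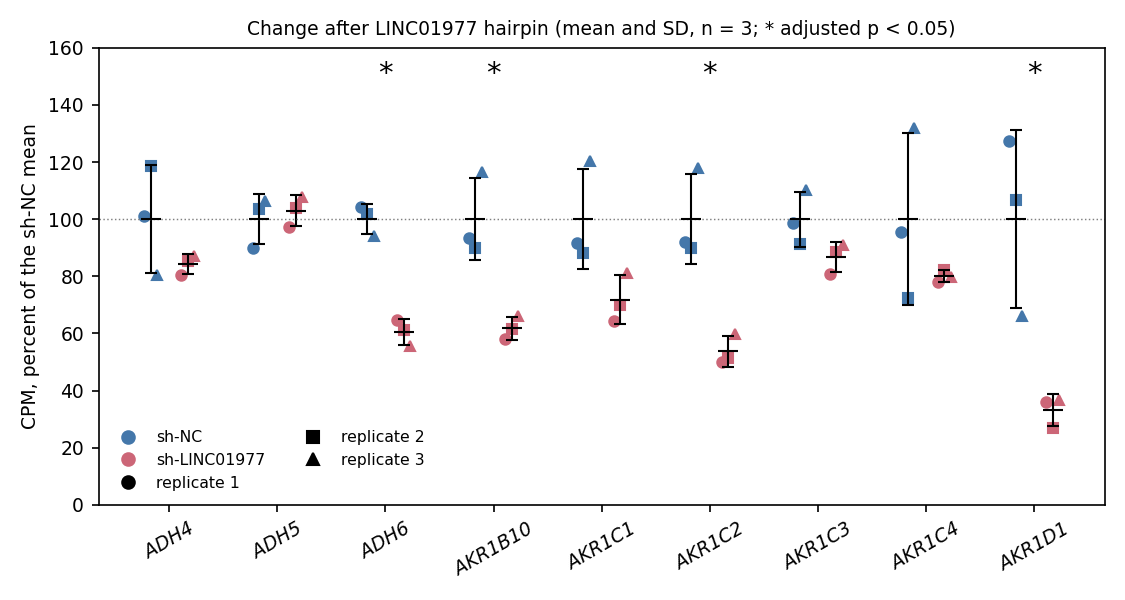
CPM of each member as a percent of its sh-NC mean, with 1 point per library, the group mean and its SD (n = 3), and an asterisk where the adjusted p is under 0.05. The knockdown points of ADH6, AKR1B10, AKR1C1, AKR1C2, AKR1C3 and AKR1D1 all lie below the control points, while those of ADH4, ADH5 and AKR1C4 overlap them.

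Values of single genes across libraries are given as CPM, that is, counts scaled to a common library size after TMM normalization on the genes tested. Tests are edgeR's quasi-likelihood test with adjustment over all tested genes. The exact two-sided permutation test of 3 libraries against 3 cannot go below p = 0.1, and it gave p = 0.1 for the 6 members whose groups did not overlap.

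Among the alcohol dehydrogenases, which are grouped on chromosome 4 in GRCh38, 1 fell and the others did not pass. ADH6 (ENSG00000172955, 99202638 to 99219537, minus strand) encodes a class V enzyme found in liver whose substrate in the body is poorly known. Its level was 53.1, 52.0 and 47.9 CPM in the controls and 33.1, 31.2 and 28.4 CPM in sh-LINC01977 libraries. The highest knockdown library was well below the lowest control library. On the log2 scale ADH6 fell by 0.72 (standard error 0.078, adjusted p = 0.00245). An antisense gene, AP002026.1, overlaps ADH6 and ADH4, and its counts were between 71 and 128 per library, far under those of ADH6 and ADH4.

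ADH4 (ENSG00000198099, 99123657 to 99157792, minus strand) encodes the class II enzyme, which oxidizes ethanol at high concentrations and retinol. It had 33.7, 39.5 and 26.8 CPM in sh-NC and 26.9, 28.4 and 29.1 CPM in sh-LINC01977 libraries. The third control library lay just under the lowest knockdown library, so the groups overlapped. The difference was -0.25 on the log2 scale (95% interval -0.58 to 0.09, adjusted p = 0.285), and it was -0.11 without the second and -0.38 without the third sh-NC library.

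ADH5 (ENSG00000197894, 99070978 to 99088801, minus strand) encodes the class III enzyme, which is made in nearly all cells and oxidizes the glutathione adduct of formaldehyde. It had 226, 261 and 267 CPM in sh-NC and 244, 261 and 271 CPM in sh-LINC01977 libraries, with the groups interleaved. The log2 difference was 0.04 (95% interval -0.14 to 0.22, adjusted p = 0.745), an interval that leaves out changes as large as that of ADH6. The ratio of ADH6 to ADH5 counts within a library was 0.205 ± 0.028 in sh-NC and 0.120 ± 0.015 in sh-LINC01977 cells (SD, n = 3 each). The summed level of the 3 dehydrogenases, most of it ADH5, was 61.0 ± 4.2 and 59.5 ± 2.7 FPKM in the respective groups (SD, n = 3 each).

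The largest fall was in AKR1D1 (ENSG00000122787, chromosome 7, 138002324 to 138117986, plus strand), which encodes the reductase that saturates the steroid ring in bile acid synthesis and in the clearance of steroid hormones. It had 18.8, 15.8 and 9.75 CPM in sh-NC and 5.32, 3.96 and 5.44 CPM in sh-LINC01977 libraries. The control libraries differed by 1.93-fold among themselves, and even the lowest of them, the third, stood above every knockdown library. AKR1D1 changed by a log2 fold of -1.59 (standard error 0.26, 95% interval -2.22 to -0.96, adjusted p = 0.0105), the 58th lowest of the 13452 tested genes. On the scale of log2(FPKM + 1), which understates changes of low genes, it was -1.02.

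AKR1B10 (ENSG00000198074, chromosome 7, 134527592 to 134541408, plus strand), the retinal and aldehyde reductase, had 699, 672 and 870.4 CPM in sh-NC libraries. In sh-LINC01977 libraries it had 433, 459 and 493 CPM. All knockdown values were below all control values, with the third library the highest of each group. AKR1B10 fell by 0.69 on the log2 scale (standard error 0.11, adjusted p = 0.00786), and without the third control library the log2 fold change was -0.57. Its close relative AKR1B15, which was not a listed member and lies next to it, had 10.9 and 6.76 CPM in the respective groups, a log2 fold change of -0.69 (adjusted p = 0.0165). That call was lost in 4 of the 6 fits that left out 1 library (the first or the third sh-NC, or the first or the second sh-LINC01977 library), with an adjusted p of up to 0.0555. The processed copy AKR1B10P1 had at most 40 counts in any library.

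The AKR1C genes span chromosome 10 from 4963253 to 5218949, and the knockdown means of all 4 were below the control means. AKR1C2 (ENSG00000151632, 4987400 to 5018031, minus strand) encodes the enzyme that inactivates dihydrotestosterone and was the AKR1C gene that passed the test alone. It had 1949, 1906 and 2502 CPM in sh-NC and 1056, 1092 and 1271 CPM in sh-LINC01977 libraries. The groups were far apart, with the third library the highest of each. AKR1C2 fell by 0.89 on the log2 scale (standard error 0.12, adjusted p = 0.00538). An antisense gene, AL391427.1, overlaps AKR1C2 and had 52 to 187 counts per library, against at least 58147 for AKR1C2.

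AKR1C1 (ENSG00000187134, 4963253 to 4983283, plus strand) encodes the enzyme that inactivates progesterone. It had 4129, 3986 and 5426 CPM in sh-NC and 2907, 3156 and 3660 CPM in sh-LINC01977 libraries. The groups did not overlap, although the controls were spread by 1.36-fold. The log2 difference of -0.48 (standard error 0.14) did not pass the adjusted threshold in edgeR (95% interval -0.80 to -0.15, adjusted p = 0.0630). With DESeq2 in place of edgeR, AKR1C1 passed (adjusted p = 0.00429), at a log2 fold change of -0.48.

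AKR1C3 (ENSG00000196139, 5035354 to 5107686, plus strand) encodes the enzyme that makes testosterone from androstenedione and also acts on prostaglandins. It had 607, 562 and 679.5 CPM in sh-NC and 498, 545 and 560 CPM in sh-LINC01977 libraries, where the highest knockdown library almost reached the lowest control. The log2 difference was -0.21 (standard error 0.079, 95% interval -0.40 to -0.02, adjusted p = 0.134), and -0.13 without the third sh-NC library. AKR1C4 (ENSG00000198610, 5195462 to 5218949, plus strand) encodes the liver form, which works after AKR1D1 in bile acid synthesis. It had 3.60, 2.74 and 4.98 CPM in sh-NC and 2.94, 3.11 and 3.01 CPM in sh-LINC01977 libraries, with the groups overlapping. Its log2 fold change was -0.32 (95% interval -0.88 to 0.24, adjusted p = 0.404). Without the third sh-NC library it was -0.07, and without the second it was -0.51.

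The sum of the 4 AKR1C genes does not depend on how reads were divided among them. It took 0.643%, 0.630% and 0.847% of all counts in the controls and 0.453%, 0.483% and 0.566% in sh-LINC01977 libraries. Fitted as 1 gene, the sum fell by 0.56 on the log2 scale (standard error 0.13, adjusted p = 0.0297 from edgeR). This call was lost without the first sh-NC library (adjusted p = 0.0535), without the first (0.0930) or the second (0.0933) sh-LINC01977 library, and with limma on log2(FPKM + 0.1) (0.0548). The sum of AKR1C1 and AKR1C2 alone, added after the data were seen, fell by 0.60 on the log2 scale (adjusted p = 0.0277 from edgeR).

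Within a library AKR1C2 kept a tight ratio to AKR1C1, and its values did not overlap between the groups. The count of AKR1C2 relative to AKR1C1 was 0.472, 0.478 and 0.461 in sh-NC and 0.363, 0.346 and 0.347 in sh-LINC01977 libraries. The spread within a group was thus small beside the step between the groups, a log2 difference of -0.42. AKR1C3 relative to AKR1C1 went the other way, with 0.138 ± 0.011 in sh-NC and 0.166 ± 0.011 in sh-LINC01977 cells (SD, n = 3 each). AKR1B10 relative to AKR1C1 was 0.166 ± 0.005 and 0.143 ± 0.007 in the respective groups (SD, n = 3 each). For each of the 6 ratios computed the groups did not overlap, and the exact two-sided permutation test gave p = 0.1, the smallest it allows (p = 0.1 also after adjustment over the 6). These ratios were chosen after the data were seen and share genes, so they largely restate the changes of the members. How often other gene pairs lie apart was not computed. Of single tested genes, 18.3% had all knockdown libraries below all control libraries in CPM. That share covers the downward direction only, while the ratios lay apart in either direction, so it is not a like reference for them. Whether the sharing of reads between copies moved with these ratios was not tested.

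**Figure D3:**
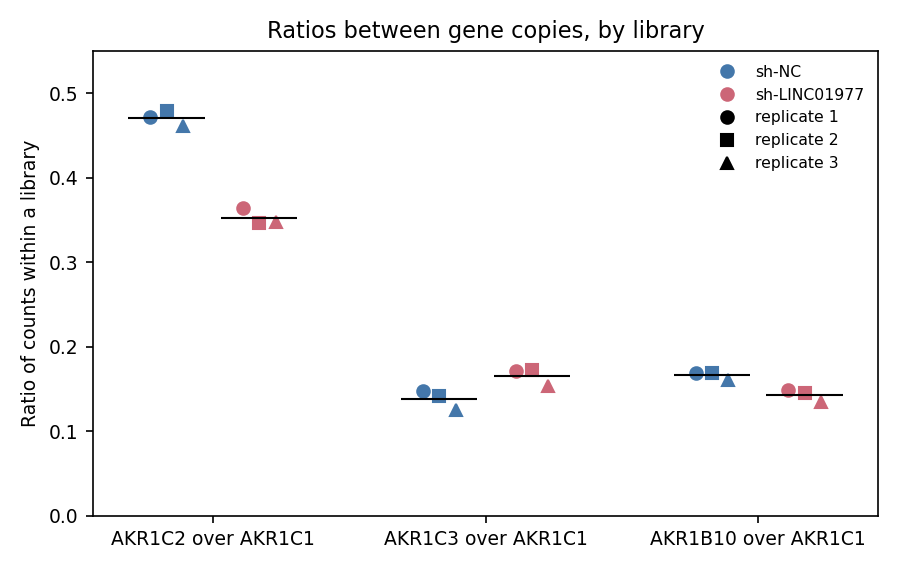
Ratio of counts between AKR1 members within each library, with 1 point per library and a bar at the group mean. AKR1C2 over AKR1C1 lies between 0.461 and 0.478 in sh-NC and between 0.346 and 0.363 in sh-LINC01977 libraries.

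Of 14 further ADH and AKR genes set out as a list, 12 were in the table and 5 were tested. Of the 5, AKR1B15 (20%) was lower (the call lost in 4 fits) and 0 were higher, against 8.07% and 7.05% of all tested genes. At an unadjusted p under 0.05, 1 (AKR1B1) was higher. The median log2 fold change was -0.12, or -0.053 under scaling by library totals. AKR1B1, the aldose reductase that turns glucose into sorbitol, had 194 ± 13 CPM in sh-NC and 228 ± 18 CPM in sh-LINC01977 cells (SD, n = 3 each). The log2 difference was 0.23 (adjusted p = 0.0854). AKR1A1, a general aldehyde reductase, had a log2 fold change of -0.12 (adjusted p = 0.308). ADH1B and ADH1C, class I enzymes of adult liver, had at most 1 and 4 counts in any library.

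Of 18 tested aldehyde dehydrogenases and acetate-activating enzymes, 5 (27.8%) were lower and 1 (5.56%) was higher, against 8.07% and 7.05% of all tested genes, with a median log2 fold change of -0.06 that was 0.0053 under scaling by library totals. ALDH3A1, which oxidizes aromatic and lipid aldehydes, had 3.82, 3.18 and 3.72 CPM in sh-NC and 13.5, 16.6 and 14.1 CPM in sh-LINC01977 libraries. This rise, by 2.04 on the log2 scale (adjusted p = 6.9e-04 from edgeR), was the opposite of the direction of AKR1B10. ACSS1, the mitochondrial enzyme that activates acetate, fell by 1.11 on the log2 scale (adjusted p = 0.00130), and ALDH1L1, of folate metabolism, by 0.92 (adjusted p = 0.00106). ALDH1B1, of mitochondria, fell by 0.40 on the log2 scale (adjusted p = 0.00744). The calls of ALDH2 and ALDH18A1, also among the 5, were lost in 11 and 9 of 15 alternatives, that of ALDH2 in all 6 fits without 1 library. Of the further ethanol and formaldehyde genes CYP2E1, CAT and ESD, 2 were tested. Of these, 1 (50%) was lower and 0 were higher, against 8.07% and 7.05% of all tested genes. Catalase (CAT) fell by 0.40 on the log2 scale (adjusted p = 0.00251), and ESD did not pass (-0.13, adjusted p = 0.300).

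Of 11 tested genes of retinoid handling, 3 (27.3%) were higher and 2 (18.2%) lower, against 7.05% and 8.07% of all tested genes. Their median log2 fold change was -0.08, and -0.012 under scaling by library totals. The list genes that rose included CRABP2, which carries retinoic acid within the cell (log2 fold change 1.89, adjusted p = 0.00470), and STRA6, the receptor that brings retinol into the cell (log2 fold change 1.33, adjusted p = 0.00691). The 2 that fell were RBP4, the retinol carrier secreted into blood (log2 fold change -0.65, adjusted p = 0.00731), and RDH11, a retinal reductase (log2 fold change -0.47, adjusted p = 0.00921).

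Among genes of bile acid synthesis, in which AKR1D1 and AKR1C4 act, 3 of 10 tested (30%) were lower and 0 higher in edgeR. Over all tested genes, 8.07% were lower and 7.05% higher. Of the 10, 1 was higher at an unadjusted p under 0.05 (median log2 fold change -0.21). The 3 lower genes were HSD3B7 (-0.51, adjusted p = 0.00504), which acts just before AKR1D1, and the peroxisomal enzymes ACOX2 (-0.46, adjusted p = 0.0337) and HSD17B4 (-0.37, adjusted p = 0.00302). The call of ACOX2 was lost in 9 of 15 alternatives, among them leaving out any library but the second sh-NC library, with an adjusted p of up to 0.104, and those of HSD3B7 and HSD17B4 in 0. CYP7A1, the rate-limiting enzyme of the pathway, had counts of 6, 0 and 5 in sh-NC and 0 in each sh-LINC01977 library, too few to compare. Set beside these, the log2 fold change of AKR1D1 was -1.59, and the differences between the genes were not tested.

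Of 16 tested genes of steroid hormone metabolism, 5 (31.2%) were lower and 0 higher in edgeR, against 8.07% and 7.05% of all tested genes. Of the 16, 1 was higher at an unadjusted p under 0.05 (median log2 fold change -0.26). SULT2A1, which sulfates steroids and bile acids, had a log2 fold change of -1.50 (adjusted p = 4.7e-04). CYP3A7, the fetal liver form of the drug and steroid hydroxylase, had -1.44 (adjusted p = 0.0151), and HSD17B2, which inactivates estradiol and testosterone, had -0.80 (adjusted p = 0.00222). The call of CYP3A7 was lost without the first or the second sh-LINC01977 library (adjusted p up to 0.0584).

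Of 26 tested NRF2 targets outside the AKR genes, 6 (23.1%) were lower and 2 (7.69%) higher. Over all tested genes 8.07% were lower, and 7.05% were higher, close to the share of these targets. The median log2 fold change of the 26 was -0.18, and -0.11 under scaling by library totals. HMOX1, heme oxygenase, fell by 0.84 on the log2 scale (adjusted p = 6.9e-04), OSGIN1 by 0.83 (adjusted p = 0.00282) and CBR1, a carbonyl reductase, by 0.73 (adjusted p = 0.0281), the last a call lost in 4 of the 6 fits without 1 library (any sh-NC, or the second sh-LINC01977 library). SLC48A1, a heme transporter, rose by 0.50 on the log2 scale (adjusted p = 0.0248), and UGDH, which makes UDP-glucuronate, by 0.29 (adjusted p = 0.0135). Both calls were lost without the first sh-NC library, and that of SLC48A1 also without the second sh-NC, the first or the third sh-LINC01977 library and with the replicate block (adjusted p up to 0.0764). Of 8 tested genes for NRF2 and its regulators, 0 passed in edgeR, 2 lower and 0 higher at an unadjusted p under 0.05, and 1 was lower with DESeq2 and 1 with the replicate block. MAFG was on both NRF2 lists. NFE2L2, which encodes NRF2, had 76.2, 78.1 and 48.7 CPM in sh-NC and 137, 57.6 and 77.2 CPM in sh-LINC01977 libraries, and KEAP1, its inhibitor, had a log2 fold change of -0.31 (adjusted p = 0.0820).

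**Figure D4:**
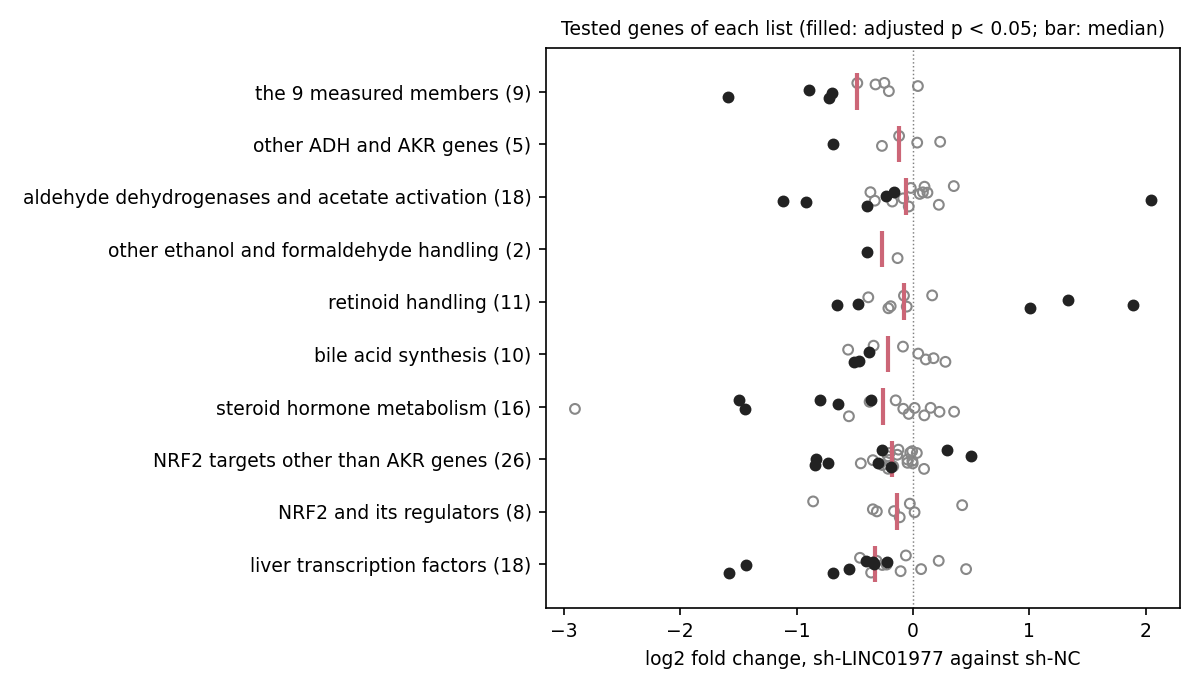
Log2 fold change of each tested gene by list, with the number tested in brackets, filled points at an adjusted p under 0.05 and a bar at the median. The 9 members have a median of -0.48, and among the other lists the medians lie between -0.06 and -0.32.

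Of 18 tested liver transcription factors, 8 (44.4%) were lower and 0 higher in edgeR, against 8.07% and 7.05% of all tested genes. Of the 18, 1 was higher at an unadjusted p under 0.05 (median log2 fold change -0.32). Among the 8, the calls of CEBPA and CEBPB were lost in 8 and 9 of 15 alternatives. ONECUT1 had a log2 fold change of -1.58 (adjusted p = 0.00409), NR1H4, the bile acid receptor FXR, of -1.43 (adjusted p = 8.7e-04), and NR0B2, the repressor SHP, of -0.69 (adjusted p = 0.00193). HNF4A, a central hepatocyte factor, had -0.55 (adjusted p = 0.00715).

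The cells carried the markers of HepG2, and most of these were lower in sh-LINC01977 cells. All 8 hepatocyte and HepG2 markers were expressed, and 6 of the 8 were lower and 0 higher, against 8.07% and 7.05% of all tested genes. APOB (log2 fold change 0.0074, adjusted p = 0.902) and TTR (-0.17, adjusted p = 0.322) did not pass. The summed level of the 8 was 4437 to 4806 FPKM in sh-NC and 3123 to 3190 FPKM in sh-LINC01977 libraries. ALB, albumin, had a log2 fold change of -1.09. The summed level of 6 of 9 mesenchymal markers in the table was 20.1 to 20.3 FPKM in sh-NC and 20.8 to 25.9 FPKM in sh-LINC01977 libraries. Most of it was ACTA2, at 16.7 and 16.5 FPKM in the respective groups (log2 fold change -0.08, adjusted p = 0.569). PDGFRB was higher (log2 fold change 1.47, adjusted p = 0.00620), and COL1A1 did not pass (0.73, adjusted p = 0.0504). VIM, below the level tested, was at 0.18 and 0.061 FPKM. COL3A1 and THY1 were at 0 and 0.0059 FPKM in sh-NC and at 0.0074 and 0.015 FPKM in sh-LINC01977 cells. The 3 of 4 leukocyte markers in the table summed to 625 to 632 FPKM and 542 to 557 FPKM in the respective groups. Almost all of it was LYZ, which was lower (log2 fold change -0.27, adjusted p = 0.00537 from edgeR). CD68 went the other way, at 10.4 and 14.8 FPKM, and did not pass (0.44, adjusted p = 0.0627). PTPRC was at 0.0022 and 0 FPKM. The 3 of 4 endothelial markers in the table summed to at most 0.441 FPKM. The part of these shifts in the falls of ADH6, AKR1B10, AKR1C2 and AKR1D1 was not tested.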

How the data were processed

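The members and lists were chosen with earlier results of these data known. RNA-seq covered 6 libraries of HepG2 cells. The authors deposited counts per gene, whole numbers without normalization, and FPKM values, scaled by the authors to transcript length and library total. The submitters' processing notes name bcl2fastq (2.0), HISAT2, StringTie, DESeq2, limma and the build hg38, and the counting settings and the use of strand are not given in the sources used here. Of 29153 gene identifiers, 28113 have the same start and end in GENCODE 29 (GRCh38), so coordinates are given in that build. A count of 4 occurred 8101 times over genes and libraries, against 2780 times for 3 and 1758 for 5, so a count may not be 1 fragment and no counting intervals are given.

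Testing of genes whose FPKM averaged 0.5 or more was done with edgeR 4.0.16 (quasi-likelihood, TMM, Benjamini-Hochberg adjustment) in R 4.3.3, and values of genes below it were read from a fit of all genes. Alternatives were RLE or total-count scaling, other filters, DESeq2 1.42.0, limma 3.58.1 on log2(FPKM + 0.1) or log2(FPKM + 1), a replicate block, leaving out each library, summing gene copies and, added after seeing the data, counts divided by 4. The code was tested on simulated data. Every member is named, and of each list the genes with an adjusted p under 0.05, at most the 3 largest changes in each direction, plus CYP7A1, NFE2L2, KEAP1, HNF4A, ADH1B, ADH1C, AKR1A1 and AKR1B1; some genes that the rule names are not reported here. AKR1B10P1, the antisense genes, ALDH2 and ALDH18A1 were named after their values were seen. The ratios between members were chosen after the data were seen. Promoter windows are from RefSeq.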

Additional observations from a re-analysis of the deposited data

How the results depend on the processing

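The count of members lower at an adjusted p under 0.05 was 4 or 5 in each of 15 alternatives, and 0 members were higher in any of them. AKR1C1 was the fifth, with DESeq2 (adjusted p = 0.00429) and with the replicate block. The labels do not say that replicate numbers pair the libraries. Over all tested genes, deviations of same-numbered libraries correlated at -0.034, 0.0051 and 0.061, which cannot exclude a pairing seen in some genes only. The replicate block lowered the standard error from 0.137 to 0.053 for AKR1C1 and from 0.122 to 0.044 for AKR1C2, and left that of AKR1D1 at 0.264. Whether the libraries were paired was not tested further. With the replicate block, AKR1C1 had a log2 fold change of -0.47 (adjusted p = 0.0178), 5 members were lower, and over all tested genes 1390 in place of 2033 were called. The sum of the 4 AKR1C genes ranged from -0.65 to -0.42 with 1 library left out. Its adjusted p then ranged from 0.0396 to 0.0933, against 0.0297 with all libraries. With limma it was -0.49 on either FPKM scale, at adjusted p of 0.0548 and 0.0546; the cause was not tested. ADH4 ranged from -0.38 to -0.11, AKR1C3 from -0.27 to -0.13 and AKR1C4 from -0.51 to -0.07, never past the threshold. ADH5, 0.04, lay between -0.029 and 0.089 with 1 library left out, and its sign turned without the first sh-NC library. Across the alternatives AKR1D1 ranged from -1.82 to -1.02, AKR1C2 from -0.98 to -0.76, ADH6 from -0.77 to -0.58 and AKR1B10 from -0.77 to -0.57, each at an adjusted p under 0.05 in every edgeR, DESeq2 and limma fit, while the exact permutation test on log2(FPKM + 0.1) gave p = 0.1 for each, the smallest it can give. Scaling by library totals moved the median of all tested genes to 0.065 and left 768 genes lower and 1455 higher, against 1085 and 948 under TMM. Among lists, counts of lower genes ranged from 3 to 6 for the aldehyde dehydrogenases, from 3 to 7 for steroid metabolism, from 2 to 3 for bile acid synthesis, from 4 to 9 for NRF2 targets, from 6 to 10 for liver transcription factors and from 0 to 2 for the further ADH and AKR genes, of which up to 1 was higher. Higher NRF2 targets ranged from 0 to 2 and higher aldehyde dehydrogenases from 1 to 2. Genes at a few counts, such as ADH1B, ADH1C and CYP7A1, could not be compared at this depth.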
